A study of Mus musculus with 24 samples.

Results

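The 9 genes described here encode core hepatocyte transcription factors: Hnf4a, Foxa1, Foxa2, Foxa3, Cebpa, Cebpb, Onecut1, Prox1 and Nr5a2. They were taken by gene symbol and account for 9 of the 56205 gene rows in the count table. All 9 were among the 14109 genes with enough counts to be tested, with 118 to 12224 counts per gene and library.

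Hepatocyte identity is held by a network of DNA-binding factors that bind their own and one another's regulatory regions. HNF4A and NR5A2 are nuclear receptors, the FOXA proteins open chromatin ahead of other factors, C/EBPα and C/EBPβ are bZIP proteins that bind the same motif, ONECUT1 (HNF6) is a cut-homeodomain factor of hepatocytes and bile duct cells, and PROX1 is a homeodomain factor that acts with HNF4A and NR5A2, largely as a corepressor. In the mature liver C/EBPα is tied to metabolic genes, whereas C/EBPβ is known as a mediator of the acute phase response and of regeneration.

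The 24 libraries were made from poly(A) RNA of whole livers of C57BL/6J mice with no genetic change, 12 kept on methionine-choline deficient (MCD) food and 12 on control food, each for 20 weeks. An MCD diet withholds the precursors needed to export lipid from hepatocytes and serves as a model of fibrosing steatohepatitis. The study's methods list this diet as methionine-choline deficient and high in fat. Its results instead name a choline-deficient high-fat diet with defined amino acids (CDAHFD), and whether both names mean the same food is not stated. The series description gives 6 males and 6 females per diet without naming the sex of a library. One library was made per liver, so the values are averages over every cell type of the organ.

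Library totals ran from 16793207 to 24915175 counts in control and from 16388650 to 24577848 in MCD. Hepatocyte transcripts were abundant in both diets: all 12 hepatocyte markers were tested and together took 113000 to 246000 CPM in control (CPM are counts relative to library size, which was scaled by the trimmed mean of M values, TMM) and 93100 to 126000 CPM in MCD. Control replicate 12 stood apart, with the highest hepatocyte marker sum, the lowest TMM factor (0.642 against up to 0.973 in other controls) and the lowest mitochondrial share (5.34%). Control replicate 10 held the highest Onecut1, Foxa1, Foxa2, Foxa3 and Nr5a2 values of its group. Values without them are given where they change a call or a value.

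RefSeq (GRCm38.p6) gave 14 promoter windows for the 9 genes, each with 250 bases before and 50 after a transcription start. The windows were searched on both strands for TGTTTAC and TATTTAC (FOXA), TTGCNNCAA and TTGCGNAA (C/EBP), CAAAGTCCA (HNF4A), CAAGGTCA (NR5A2), and ATCAATA and ATCGAT (ONECUT1). Of the 14 windows 3 held a match, while 13.6% of all 32851 windows did. The 3 are shown because they place a letter match of one member, or of its own family, in the promoter of a member, with the match in capitals. The start of Hnf4a shown lies upstream of the start that is used in adult liver, and its match is ATCAATA, 59 bases before the start (chr2:163506607-163506906, plus strand).
Hnf4a, upstream start: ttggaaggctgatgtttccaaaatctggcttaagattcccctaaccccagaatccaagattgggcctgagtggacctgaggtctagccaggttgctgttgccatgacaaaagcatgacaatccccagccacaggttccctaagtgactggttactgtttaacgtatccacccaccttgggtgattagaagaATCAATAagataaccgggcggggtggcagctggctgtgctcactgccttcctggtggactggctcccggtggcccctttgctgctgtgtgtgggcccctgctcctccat
In the Foxa1 promoter (chr12:57546062-57546361, minus strand) TGTTTAC was found on the other strand 141 bases before the start.
Foxa1: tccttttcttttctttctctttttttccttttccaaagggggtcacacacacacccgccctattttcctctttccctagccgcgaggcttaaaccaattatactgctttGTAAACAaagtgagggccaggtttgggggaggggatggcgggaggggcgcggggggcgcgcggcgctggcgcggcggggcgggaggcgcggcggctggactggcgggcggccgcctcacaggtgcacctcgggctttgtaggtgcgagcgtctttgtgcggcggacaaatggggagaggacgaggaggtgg
In the most upstream window of Foxa2 (chr2:148046920-148047219, minus strand) ATCAATA was found on the other strand 214 bases before the start.
Foxa2, most upstream start: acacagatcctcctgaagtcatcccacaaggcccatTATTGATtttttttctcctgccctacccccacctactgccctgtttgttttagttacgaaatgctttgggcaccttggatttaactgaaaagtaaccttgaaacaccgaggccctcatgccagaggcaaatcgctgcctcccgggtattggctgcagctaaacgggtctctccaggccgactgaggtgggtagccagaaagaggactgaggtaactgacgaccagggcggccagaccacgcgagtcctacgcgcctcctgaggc
TGTTTAC was present in 3.65% and ATCAATA in 2.05% of all windows, so the matches are a description of these letters only.

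The promoters of Cebpa and Cebpb are shown as those of a pair of related factors whose fold changes had opposite signs. The Cebpa window lies at chr7:35119043-35119342 and the Cebpb window at chr2:167688665-167688964, both on the plus strand.
Cebpa: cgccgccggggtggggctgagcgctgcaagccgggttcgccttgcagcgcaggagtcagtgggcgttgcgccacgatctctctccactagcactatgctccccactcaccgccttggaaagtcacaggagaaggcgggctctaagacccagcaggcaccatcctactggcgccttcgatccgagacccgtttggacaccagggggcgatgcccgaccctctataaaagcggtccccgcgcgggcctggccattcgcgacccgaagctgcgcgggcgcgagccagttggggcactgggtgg
Cebpb: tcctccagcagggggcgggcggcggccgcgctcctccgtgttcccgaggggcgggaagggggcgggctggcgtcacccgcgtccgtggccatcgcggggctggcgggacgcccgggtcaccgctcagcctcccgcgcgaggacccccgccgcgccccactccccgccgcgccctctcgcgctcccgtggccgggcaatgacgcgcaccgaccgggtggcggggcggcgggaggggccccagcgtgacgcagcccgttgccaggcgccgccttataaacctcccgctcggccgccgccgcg
Neither window held any of the searched letters. The share of G and C was 67.3% with 29 CG dinucleotides in the Cebpa window and 80.7% with 50 in the Cebpb window, against medians of 52.7% and 7 over all windows. At the other end, the upstream Nr5a2 window held 42.0% G and C with 2 CG dinucleotides.

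The diet comparison asked how the level of each factor differed between MCD and control livers. Cebpa, Prox1, Nr5a2 and Foxa1 were lower in MCD livers, and no factor was called higher. That is 4 of 9 lower, beside 19.1% of all tested genes, and 0 of 9 higher, beside 19.2% (edgeR quasi-likelihood test, Benjamini-Hochberg FDR at most 0.01 and absolute log2 fold change above 0.5). At an unadjusted p under 0.05, 1 factor was higher, Cebpb, which DESeq2 and limma-voom each called. The 9 factors had a median log2 fold change of -0.57, that of all tested genes being -0.10, and 7 of the 9 values were below 0, as were those of 57.5% of tested genes. The diets did not overlap for 2 factors, Cebpa and Nr5a2, beside 14.4% of tested genes without overlap in either direction.

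**Figure D1:**
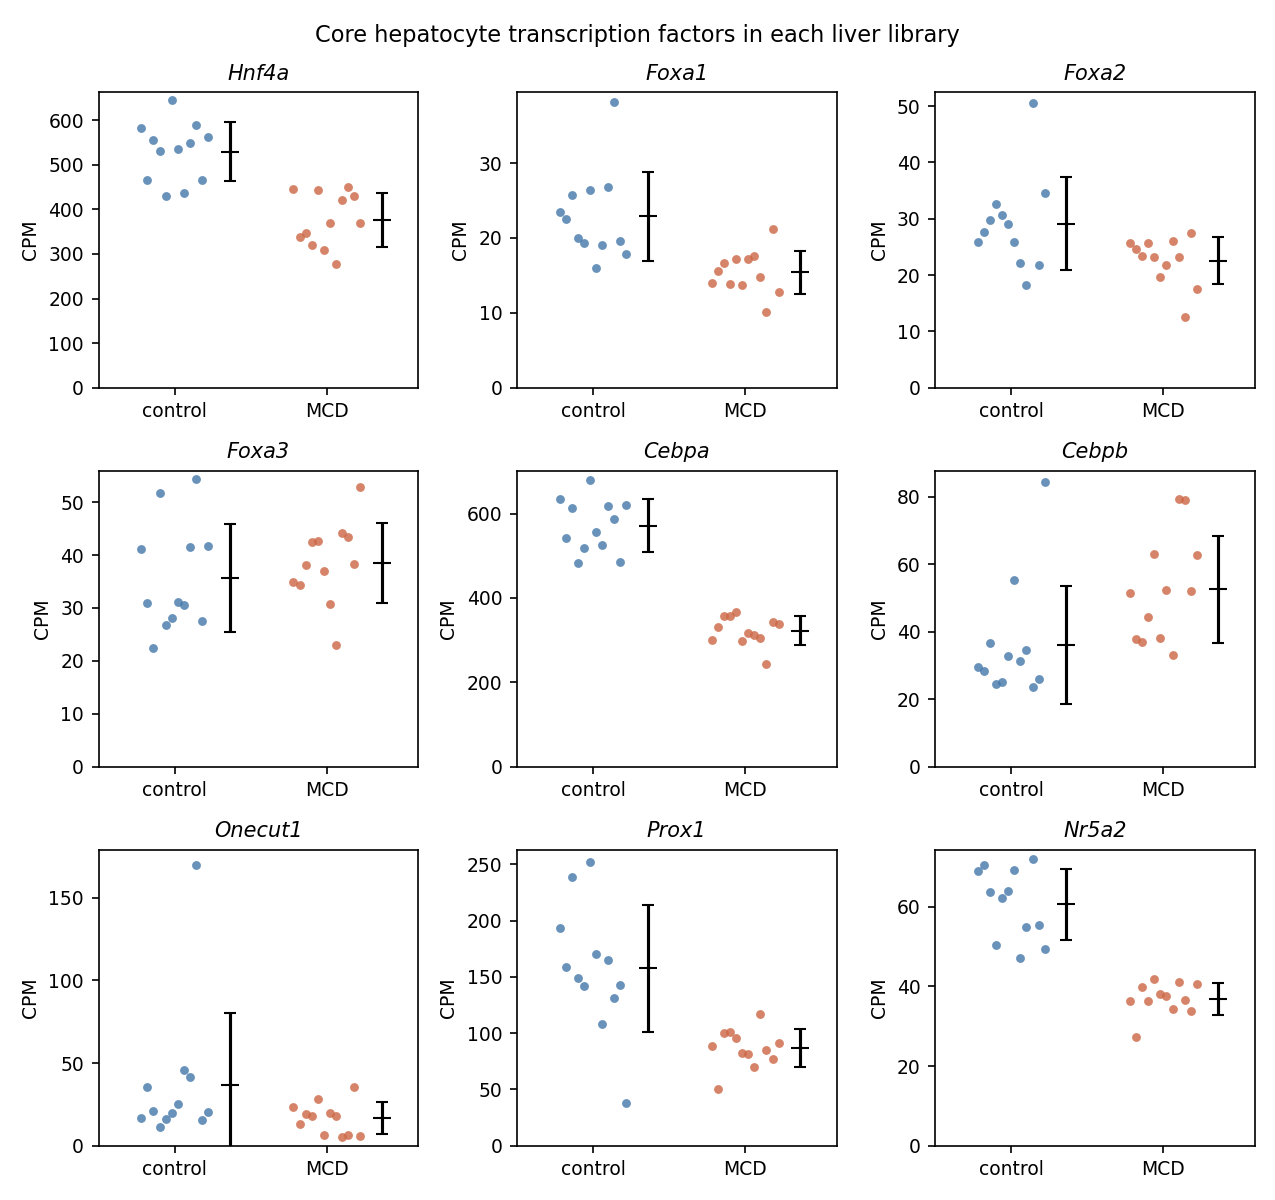
CPM (linear axis from 0) of each of the 9 factors in 12 control and 12 MCD liver libraries, 1 point per library, with the mean and SD beside each group (the lower SD bar of control Onecut1 runs below 0 and is not drawn there). All 12 MCD libraries lie under all 12 control libraries for Cebpa and Nr5a2, and single control libraries stand apart for Onecut1, Cebpb and Prox1.

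Among the nuclear receptors, Hnf4a (ENSMUSG00000017950, chromosome 2, 163506808 to 163572910, plus strand of GRCm38) had 431 to 645 CPM in control (median 542) and 278 to 451 CPM in MCD (median 370). Of the 12 MCD libraries 9 lay below every control library, and all 12 below the control median. Its log2 fold change of -0.49 (SE 0.09, 95% interval -0.68 to -0.30, edgeR FDR 4.14e-05) met the FDR limit but not the fold limit, so Hnf4a was not called. The distance to that limit was small, and the value ran from -0.52 to -0.41 when single libraries were left out, passing in 6 of 24 such fits (without control replicate 2, 5, 8 or 11 or without MCD replicate 1 or 9).

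Nr5a2 (LRH-1, a regulator of bile acid and cholesterol genes; ENSMUSG00000026398, chromosome 1, 136842571 to 136960448, minus strand) had 47.0 to 72.0 CPM in control (median 62.8) and 27.2 to 41.9 CPM in MCD (median 37.1). Every MCD library was below every control library. Nr5a2 fell by 0.71 on the log2 scale (SE 0.08, edgeR FDR 2.62e-08), from a mean of 60.6 ± 8.90 to 36.9 ± 4.01 CPM (SD, n = 12 each), and was called in all 24 fits that left out 1 library.

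Prox1 (ENSMUSG00000010175, chromosome 1, 190118035 to 190170714, minus strand) had 38.1 to 252 CPM in control (median 154) and 50.4 to 117 CPM in MCD (median 86.8). The lowest value of all 24 was that of control replicate 12, and the other 11 controls had 108 CPM or more. All 12 MCD libraries were below the control median, but the diets overlapped. Prox1 fell by 0.86 on the log2 scale (SE 0.19, edgeR FDR 0.000255), and it was called in all 24 fits that left out 1 library. An antisense gene, Prox1os, overlaps Prox1 and differed by -0.84 on the log2 scale (edgeR FDR 0.000143). Whether counting used strand is not stated, so their reads may be shared and the values of both are uncertain to that extent.

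The FOXA factors did not move alike. Foxa1 (ENSMUSG00000035451, chromosome 12, 57540628 to 57546916, minus strand) had 16 to 38.1 CPM in control (median 21.3) and 10.1 to 21.2 CPM in MCD (median 15.2). Of the MCD libraries 7 lay below every control library, and the highest control value was that of replicate 10. Foxa1 fell by 0.57 on the log2 scale (SE 0.12, edgeR FDR 0.000239), but the value was -0.49 without control replicate 10 and -0.48 without MCD replicate 10, both short of the fold limit and not called. It also missed that limit with upper-quartile factors (-0.42), with at least 10 counts required in every library (-0.49), and without control replicates 10 and 12 together (-0.47).

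Foxa2 (ENSMUSG00000037025, chromosome 2, 148042877 to 148046969, minus strand) had 18.3 to 50.6 CPM in control (median 28.3) and 12.6 to 27.4 CPM in MCD (median 23.3). The diets overlapped, with 2 MCD libraries below every control library. The log2 fold change of -0.37 (SE 0.13, edgeR FDR 0.0187) did not pass, and it was -0.19 (edgeR FDR 0.146) without control replicates 10 and 12.

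Foxa3 (ENSMUSG00000040891, chromosome 7, 19013284 to 19023538, minus strand) had 22.5 to 54.3 CPM in control (median 31.1) and 23.0 to 52.8 CPM in MCD (median 38.3). These ranges nearly coincided, although 10 of 12 MCD libraries were above the control median. The difference on the log2 scale was 0.11 (SE 0.14, 95% interval -0.17 to 0.39, edgeR FDR 0.494).

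The C/EBP factors went apart. Cebpa (ENSMUSG00000034957, chromosome 7, 35119293 to 35121928, plus strand) had 482 to 679 CPM in control (median 572) and 244 to 366 CPM in MCD (median 324). The diets were separated by a gap between 366 and 482 CPM. Cebpa fell by 0.83 on the log2 scale (SE 0.08, 95% interval -0.98 to -0.67, edgeR FDR 6.6e-10), a 1.77-fold lower level, and was called in all 24 fits that left out 1 library. It also varied least within a diet, with a coefficient of variation of 11% in control and 10.5% in MCD. An antisense gene that overlaps it, Gm45091, was at most at 46 counts in a library.

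Cebpb (ENSMUSG00000056501, chromosome 2, 167688915 to 167690418, plus strand) had 23.6 to 84.4 CPM in control (median 30.5) and 33.2 to 79.5 CPM in MCD (median 51.7). All 12 MCD libraries were above the control median, but control replicate 12 held the highest value of all 24 and control replicate 7 had 55.3 CPM. The log2 fold change of 0.55 (SE 0.19, 95% interval 0.15 to 0.95, edgeR FDR 0.0165) did not pass the FDR limit. Without control replicate 12 it was 0.77 with an edgeR FDR of 0.000137 and was called higher, it was also called without control replicate 7 or MCD replicate 2, 3, 6 or 8, and DESeq2 (0.60, adjusted p = 0.00469) and limma-voom (0.60, adjusted p = 0.00577) called it on all 24 libraries. Tmem189, which overlaps Cebpb on the opposite strand, was at 30.4 CPM in control and 29.3 CPM in MCD.

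Onecut1 (ENSMUSG00000043013, chromosome 9, 74861921 to 74891781, plus strand) had 11.5 to 170.5 CPM in control (median 20.5) and 5.52 to 35.7 CPM in MCD (median 17.8). The highest control value was that of replicate 10, and the next was 46.0 CPM. Of the MCD libraries 4 lay at 6.41 CPM or less, below every control library, while 3 were above the control median. On the log2 scale the difference was -1.14 (SE 0.41, edgeR FDR 0.0164) with all libraries and -0.57 without control replicate 10, and neither was called, although it was without control replicate 4 (-1.24, edgeR FDR 0.00987). Onecut1 had the largest coefficient of variation of the 9 factors in both diets, 119% in control and 58.7% in MCD. Gm20649, which overlaps it on the same strand, held at most 104 counts in a library.

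The labels name no sex for a library, so a score of sex-linked transcripts (Xist minus the mean of 4 Y-linked genes, log2 CPM) was used as a number. The model held the score, diet and their product, so its score term is the slope in control livers. No factor passed an FDR of 0.05 for that term, and the slope in MCD livers was not tested by itself. The lowest p-value was that of Onecut1 (-0.07 on the log2 scale per unit of the score, edgeR p = 0.0178, FDR 0.0864). Control scores ran from -8.07 to 12.5, so a small value per unit is a larger one over that range. The product of the score with diet gave an FDR of 0.361 for Onecut1.

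How libraries are scaled moved every fold change together. TMM factors were 0.642 to 0.973 for control and 1.07 to 1.26 for MCD libraries, and with total counts alone the median over all tested genes moved from -0.10 to 0.27 (log2 scale). On that scale 0 of 9 factors were called lower, beside 6.01% of tested genes, and 1 of 9 higher, Cebpb at 0.95, beside 32.2%. The values there were -0.46 for Cebpa (edgeR FDR 1.33e-05), -0.36 for Nr5a2 (FDR 0.00127), -0.54 for Prox1 (FDR 0.0237), -0.75 for Onecut1 (FDR 0.105), 0.48 for Foxa3 (FDR 0.00127), -0.21 for Foxa1, -0.13 for Hnf4a and 0.00741 for Foxa2. Subtracting the median of all tested genes removes a shift common to all genes by construction, so the following values describe each factor's place among the genes and are no check of the calls. Cebpa lay at -0.73, Prox1 between -0.81 and -0.76, Nr5a2 between -0.63 and -0.61, Foxa1 between -0.48 and -0.47, Hnf4a between -0.40 and -0.39, Foxa3 between 0.211 and 0.215, and Cebpb between 0.64 and 0.68 over the 4 scalings tried.

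The same factors were then set against a list of 12 hepatocyte markers, as the log2 count of a factor minus the mean log2 count of the 12 hepatocyte markers in the same library. In bulk liver, fewer hepatocytes and less factor RNA per hepatocyte cannot be told apart, and this measure was chosen after the fold changes were seen. The markers themselves ran from -1.73 (Fabp1) to 0.145 (Ahsg) in log2 fold change, and 5 of the 12 (Alb, Apoa1, Apob, Ttr and Cps1) also stand in the lists of bound genes given further on, so the measure is not independent of those lists. Hnf4a then had a difference of -0.00253 (SE 0.09, permutation test with 100000 resamples, p = 0.978). Cebpa had a difference of -0.33 (SE 0.10, permutation p = 0.00415, 0.0124 adjusted over 9), a difference under the fold limit used for calls. Cebpb was higher by 1.09 (SE 0.16, permutation p = 1e-05, the smallest the resamples can give, 9e-05 adjusted) and Foxa3 higher by 0.63 (SE 0.11, permutation p = 4e-05, 0.00018 adjusted). Nr5a2 (-0.21, SE 0.12), Prox1 (-0.27, SE 0.27), Foxa1 (-0.06, SE 0.17), Foxa2 (0.15, SE 0.16) and Onecut1 (-0.45, SE 0.42) did not pass, with adjusted permutation p values of 0.172 or more. With the 7 markers that stand in no such list, Cebpb was higher by 1.08 (permutation p = 1e-05, 9e-05 adjusted) and Foxa3 by 0.62 (permutation p = 6e-05, 0.00027 adjusted), and the differences were -0.34 for Cebpa (adjusted permutation p = 0.0162) and -0.0106 for Hnf4a (adjusted permutation p = 0.923).

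**Figure D2:**
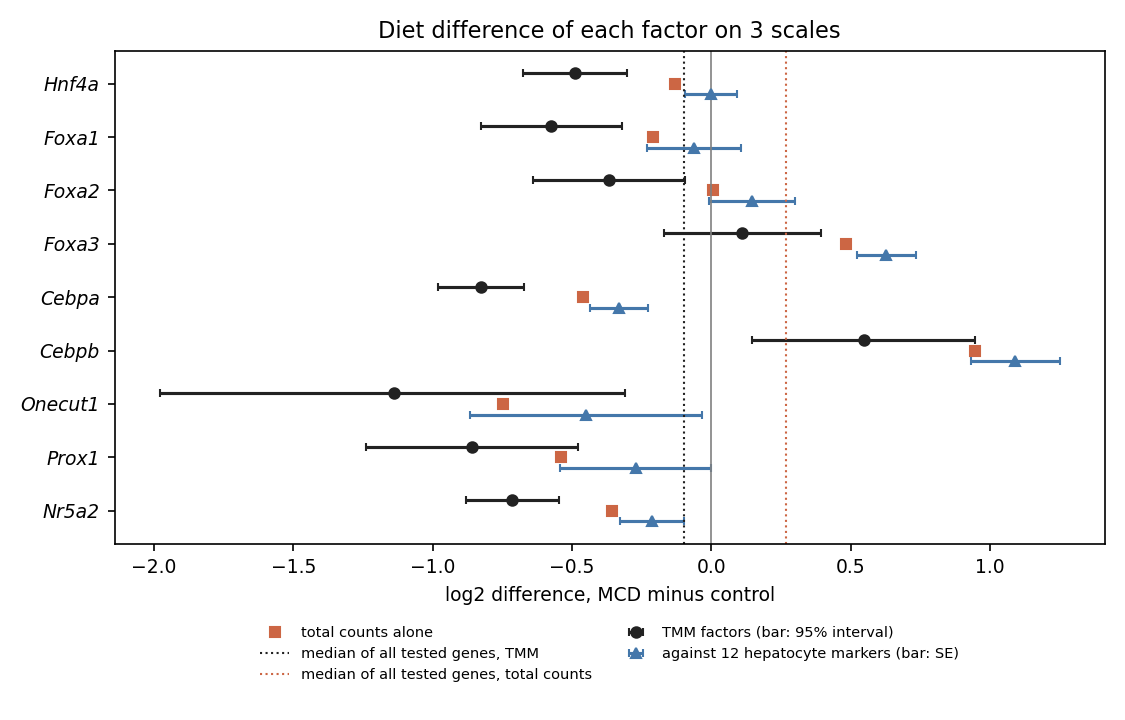
Difference of each factor between MCD and control (log2 scale) with TMM factors (circles, 95% interval), with total counts alone (squares) and against 12 hepatocyte markers in the same library (triangles, SE), with dotted lines at the median of all tested genes on the TMM and the total count scale. Cebpa lies below 0 and Cebpb above 0 on all 3 scales, while Hnf4a runs from -0.49 to -0.00253.

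Ratios of factors within a library do not depend on library scaling, and all 36 pairs were compared by a two-sided permutation test with 100000 resamples, adjusted over the 36. The ratio differed between the diets for 17 pairs. Cebpb was raised against 7 of the 8 other factors and Foxa3 likewise against 7, and between these 2 the difference did not pass (-0.46 for Foxa3 over Cebpb, SE 0.22, adjusted p = 0.0814). Cebpa was lowered against 5 factors.

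The ratio of the C/EBP factors differed between the diets. Control livers held 7.33 to 24.7 Cebpa counts per Cebpb count (median 18.9) and MCD livers 3.08 to 9.59 (median 6.30). Of the MCD libraries 7 lay below every control library, and the lowest control ratio was that of replicate 12. The mean log2 ratio fell by 1.42 (SE 0.20, permutation p = 3e-05, adjusted p = 0.00036), or 2.68-fold. Against Cebpb, Hnf4a fell by 1.09 (SE 0.17, adjusted permutation p = 0.00036), Prox1 by 1.36 (SE 0.33, adjusted permutation p = 0.0031), and Nr5a2 by 1.30 (SE 0.21, adjusted permutation p = 0.00036).

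**Figure D3:**
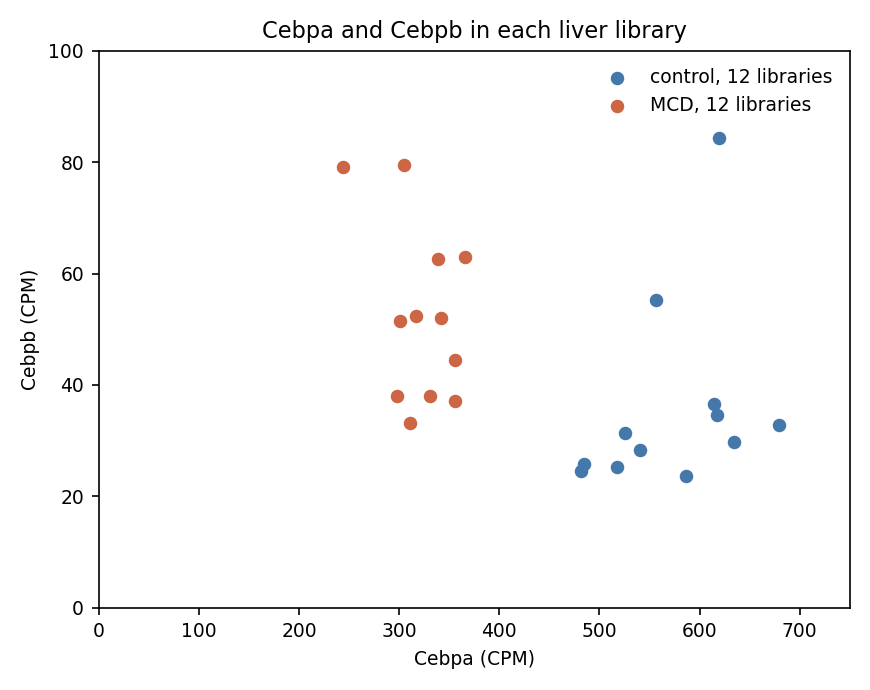
Cebpa against Cebpb (both in CPM, linear axes from 0), 1 point per liver library, 12 control and 12 MCD. The control libraries lie at 482 CPM of Cebpa or more, and the MCD libraries at 366 CPM or less while the Cebpb values of the diets overlap, with control replicates 7 and 12 at 55.3 and 84.4 CPM.

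Within the FOXA family the ratio of Foxa1 to Foxa3 fell by 0.69 on the log2 scale (SE 0.19, adjusted permutation p = 0.00514), and that of Foxa2 to Foxa3 by 0.48 (SE 0.19, adjusted permutation p = 0.0432), the latter lost in 15 of 24 fits that left out 1 library. Foxa3 gained 0.96 on Cebpa (SE 0.16, adjusted permutation p = 0.00036) and 0.63 on Hnf4a (SE 0.13, adjusted permutation p = 0.00036). Cebpa also lost 0.33 to Hnf4a (SE 0.10, adjusted permutation p = 0.00508). Among Cebpa, Prox1 and Nr5a2, which were all called lower, no ratio passed the threshold: the differences were -0.06 for Cebpa over Prox1 (SE 0.22), -0.12 for Cebpa over Nr5a2 (SE 0.09) and -0.06 for Prox1 over Nr5a2 (SE 0.18).

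**Figure D4:**
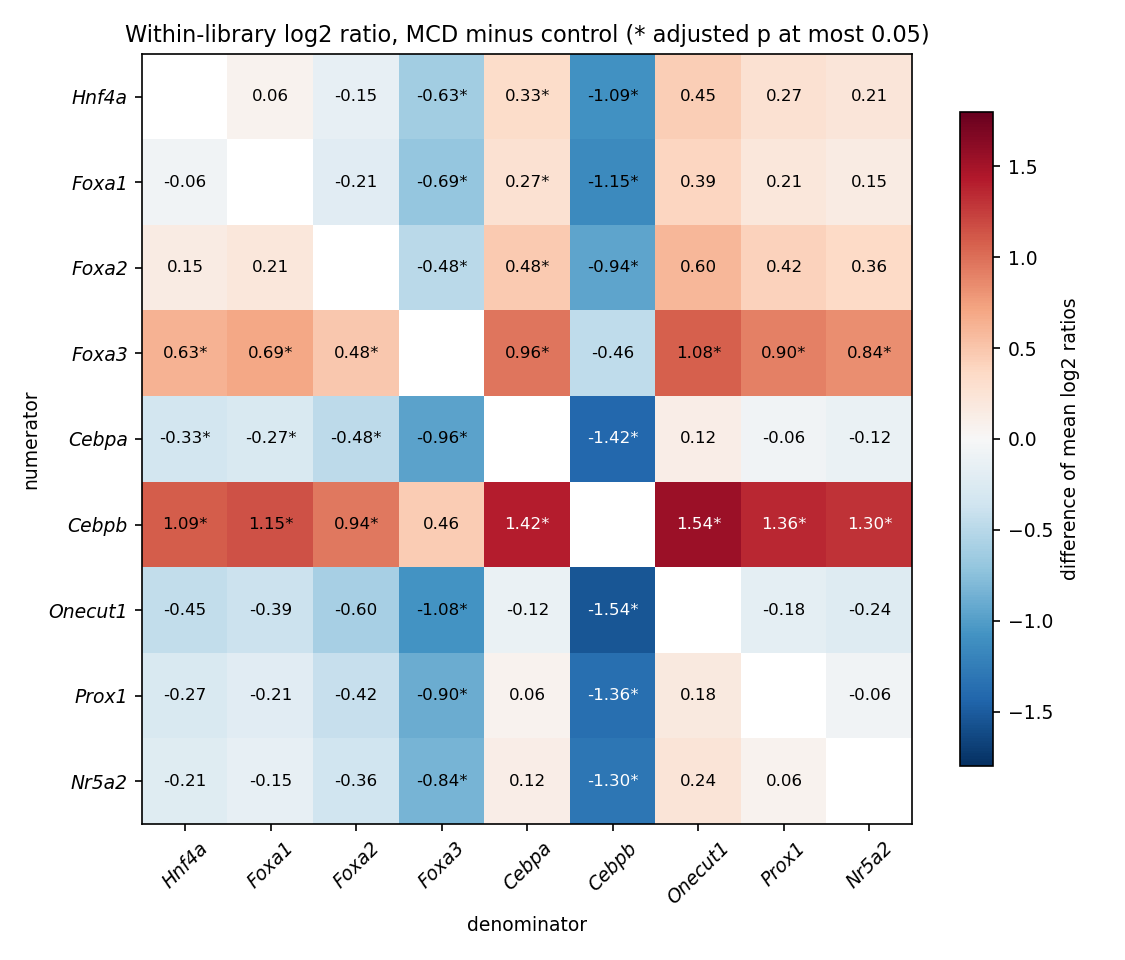
Difference between MCD and control in the mean log2 ratio of the row factor to the column factor within a library, for all 36 pairs (shown in both orientations), with a star where the permutation p adjusted over 36 is at most 0.05. The Cebpb and Foxa3 rows are raised against 7 of 8 columns each, and the cells between Cebpa, Prox1, Nr5a2 and Onecut1 carry no star.

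Levels of different genes were compared per length of the longest transcript (CPM per kb). In control livers the order was Cebpa (218), Hnf4a (121), Cebpb (24), Prox1 (19.9), Foxa3 (17.5), Foxa2 (13.7), Nr5a2 (12.8), Onecut1 (9.26) and Foxa1 (7.18). Cebpa exceeded Hnf4a and Hnf4a exceeded Cebpb in all control libraries (exact sign-flip test of log2 levels, p = 0.000488 each, 0.00195 adjusted over 8 neighbours), while Cebpb and Prox1, Prox1 and Foxa3, Foxa2 and Nr5a2, and Onecut1 and Foxa1 did not differ beyond their spread. In MCD livers the order was Cebpa (123), Hnf4a (86.4), Cebpb (35), Foxa3 (18.9), Prox1 (11), Foxa2 (10.6), Nr5a2 (7.80), Foxa1 (4.82) and Onecut1 (4.19). Cebpb there stood above Foxa3 and Foxa3 above Prox1 (exact sign-flip test, p = 0.000488 each, 0.000977 adjusted over 8). Prox1 and Foxa2, and Foxa1 and Onecut1, did not differ beyond their spread in MCD. With exon-union lengths in place of the longest transcript the order was the same in both diets.

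Covariation of factors within a diet was tested for 3 pairs in each diet, 6 relations in all, on log2 CPM. In control livers Hnf4a and Cebpa rose and fell together over 12 libraries (Pearson r = 0.776, permutation p = 0.00376, adjusted 0.0179; Spearman rho = 0.811, permutation p = 0.00227, adjusted 0.0136), and r was 0.787 without the 2 libraries farthest from the Hnf4a median. On total counts r was 0.825 (permutation p = 0.00202, adjusted 0.0121), but rho was 0.371 (permutation p = 0.235). In MCD livers r was -0.212 (permutation p = 0.523); the difference between the diets was not tested. Foxa2 and Onecut1 were related in MCD livers (r = 0.687, permutation p = 0.00597, adjusted 0.0179), but rho was 0.601 with an adjusted p = 0.119 and r was 0.595 with an adjusted permutation p = 0.211 without the 2 libraries farthest from the Foxa2 median (n = 10), so it did not pass without them. Their r in control livers was 0.340 (permutation p = 0.263). Cebpa and Cebpb gave r = 0.404 in control (permutation p = 0.197) and -0.349 in MCD (permutation p = 0.274).

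Genes whose deviations from the diet mean followed each factor over the 24 libraries were ranked by Pearson r among 10103 genes, as a description without a test. Prox1 was followed by Wdr26 (r = 0.948) and Lrp6 (0.941), which remained at 0.926 and 0.885 without control replicates 10 and 12. Hnf4a was followed by Slc45a3 (0.849), Foxa2 by another forkhead gene, Foxq1 (0.841), and Nr5a2 by Uroc1 (0.836), an enzyme of histidine breakdown. For Onecut1 the nearest was E2f8 (0.828), for Cebpb Ip6k2 (0.844), for Foxa3 Cldn14 (0.797), for Cebpa the pseudogene Cyp2d37-ps (0.778), and for Foxa1 Kdm5b (0.773), which dropped to 0.639 without the 2 libraries. The points share library scaling, depth and a mixture of cell types.

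Paralogs of the members were looked at next. Of 6 tested paralogs 2 were higher and 3 lower (beside 19.2% and 19.1% of all tested genes). Cebpd, another acute phase C/EBP, had a median of 13.3 CPM and at most 38.4 CPM in control and 30.5 to 82.0 CPM in MCD, and rose by 1.5 on the log2 scale (SE 0.21, edgeR FDR 1.06e-06). Ddit3 (CHOP, the C/EBP of the stress response) rose by 0.59 (edgeR FDR 0.000334), but it overlaps Mars on the opposite strand. Onecut2, the second ONECUT factor of the liver, had 57.4 to 125 CPM in control and 36.4 to 55.5 CPM in MCD, so that every MCD library lay below every control library, and fell by 0.93 (SE 0.11, edgeR FDR 8.6e-08). Cebpe (-0.84) and Prox2 (-0.60) also fell. On total counts alone 1 paralog stayed called lower and 2 higher, beside 6.01% and 32.2% of all tested genes.

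Of 16 other liver-enriched factors 9 were lower and 1 higher, beside 19.1% and 19.2% of all tested genes, with a median log2 fold change of -0.54. Ppara, the fatty acid oxidation receptor, fell by 1.76 on the log2 scale (SE 0.20, edgeR FDR 2.51e-08), with 23.5 to 153 CPM in control and 21.9 to 46.2 CPM in MCD. Tbx3 fell by 1.59 (SE 0.18, edgeR FDR 1.95e-08) and Nr1i3, the xenobiotic receptor CAR, by 0.90 (SE 0.17, edgeR FDR 4.65e-05). Gata6 was the 1 that rose (0.68, SE 0.10, edgeR FDR 2.82e-06). On total counts alone 3 were lower, beside 6.01% of all tested genes, and 2 higher, a share below the 32.2% of all tested genes.

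Among 17 cofactors and inhibitors 4 were higher and 5 lower, with a median of -0.01. These shares, 23.5% and 29.4%, were not far from the 19.2% and 19.1% of all tested genes. The nuclear receptor corepressor Ncor1 (-0.76) and the coactivators Ncoa1 (-0.76) and Ncoa2 (-0.76) fell. Id1 (1.10) and Id3 (0.86), inhibitors of helix-loop-helix factors, and Trib2 (0.99), a pseudokinase that promotes C/EBPα degradation, rose. On total counts alone the 5 falls were lost and 4 genes stayed called higher, a share below the 32.2% of all tested genes.

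Genes that the factors are known to bind were listed by factor, 49 in all, of which 48 were tested and 10 stood in more than 1 list. Of the 48, 20 were lower and 9 higher, with a median log2 fold change of -0.48, beside -0.10 over all tested genes. The lower share was 41.7%, beside 19.1% of all tested genes, and the higher share of 18.8% was near the background of 19.2%. The members Hnf4a and Foxa2 stand in the ONECUT1 list and are thus counted among the bound genes, neither being called. Binding was not measured in these livers, so the lists describe transcript levels only. Of the genes named from these and the preceding lists, Cebpd, Prox2, Gata6, Tbx3, Nr1i3, Ncor1, Ncoa1, Mttp, Abcb11 and Abcg8 each share sequence with an opposite-strand gene, and Orm2 and Saa3 have close paralogs that may share reads, so their values are uncertain to that extent.

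HNF4A-bound genes had 12 of 18 lower, beside 19.1% of all tested genes, and 0 higher, with a median of -0.77. With total counts alone 4 were lower, beside 6.01% of all tested genes. Mttp, which loads lipid onto lipoproteins, had 192 to 435 CPM in control and 98.6 to 171 CPM in MCD, without overlap, and fell by 1.29 (SE 0.11, edgeR FDR 2.79e-10). Slc2a2, the hepatocyte glucose transporter, fell by 1.09 (SE 0.14, edgeR FDR 1.22e-07), and Cyp7a1, the rate-limiting enzyme of bile acid synthesis, by 1.27 (SE 0.28, edgeR FDR 0.000291).

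NR5A2-bound genes had 4 of 7 lower, beside 19.1% of all tested genes, and 0 higher, with a median of -0.86. On total counts alone 3 were lower and 1 higher, beside 6.01% and 32.2% of all tested genes. Abcg8, a sterol exporter, had 93.5 to 204 CPM in control and 62.4 to 96.7 CPM in MCD and fell by 0.995 (SE 0.11, edgeR FDR 3.29e-08), and Cyp7a1 is shared with the HNF4A list. The 8 ONECUT1-bound genes had 2 lower, among them Cyp7a1, and 0 higher, with a median of -0.43, the lower share being near the 19.1% of all tested genes. That list holds the members Hnf4a (-0.49) and Foxa2 (-0.37), so its median is in part a value of the factors themselves. With total counts alone 2 were lower and 1 higher, beside 6.01% and 32.2% of all tested genes.

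FOXA-bound genes had 4 of 10 lower, beside 19.1% of all tested genes, and 2 of 10 higher, a share near the 19.2% of all tested genes. With total counts alone 1 was lower and 2 higher, beside 6.01% and 32.2%. Abcb11, the bile salt export pump, fell by 1.27 (SE 0.13, edgeR FDR 5.76e-09), Ttr by 0.85 and Abcc2 by 0.79. Igfbp1, a secreted binder of insulin-like growth factors, rose by 2.24 (SE 0.40, edgeR FDR 2.66e-05) and Afp, the fetal serum protein, by 1.28 (SE 0.28, edgeR FDR 0.000233), from a level of at most 2.55 CPM in control.

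C/EBP-bound genes were listed as metabolic and as acute phase genes, and the difference between these lists was not tested. Of 10 metabolic genes 3 were lower, beside 19.1% of all tested genes: Alb (-0.62), Ass1 of the urea cycle (-0.58) and the coagulation factor gene F9 (-0.50). None was higher, and 0 were lower with upper-quartile factors, where 12.1% of all tested genes were lower. Of 12 acute phase genes 7 were higher (58.3%, beside 19.2% of all tested genes) and 1 lower, with a median of 1.05. Lcn2 had 5.86 to 84.3 CPM in control and 285 to 1290 CPM in MCD and rose by 3.82 (SE 0.35, edgeR FDR 6.49e-10), Orm2 by 3.70 (SE 0.38, edgeR FDR 5.11e-09) and Saa3 by 3.24 (SE 0.33, edgeR FDR 4.63e-09), while Itih4 fell by 0.75 (SE 0.15, edgeR FDR 0.000139). On total counts alone 0 metabolic genes were lower and 10 acute phase genes higher, where 6.01% of all tested genes were lower and 32.2% higher.

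**Figure D5:**
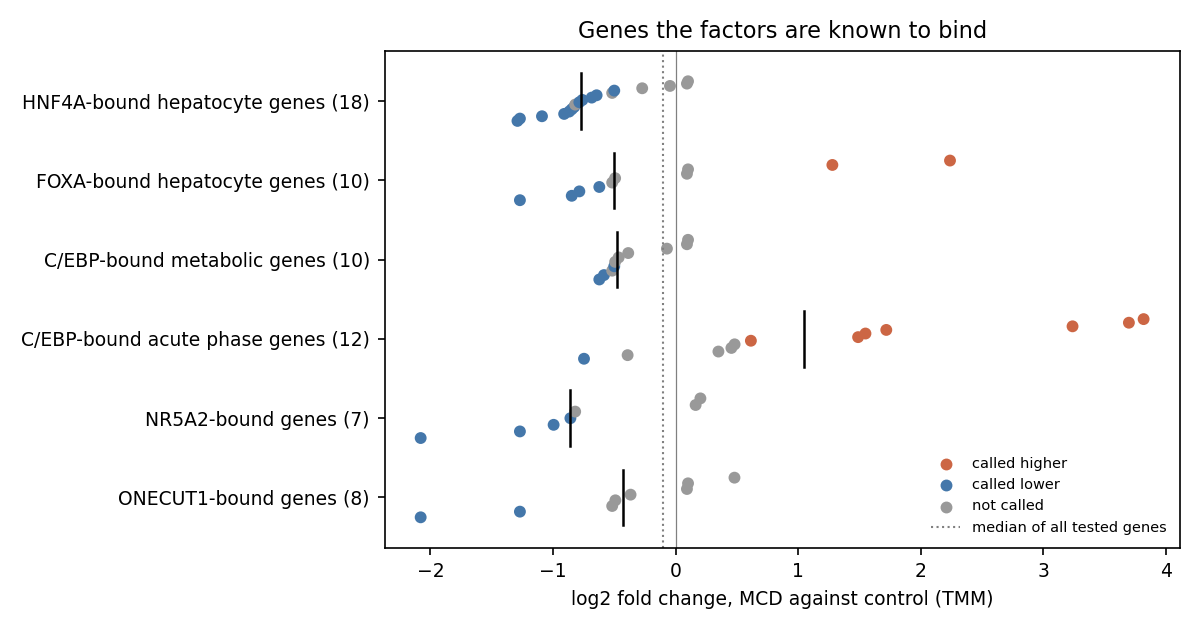
Log2 fold change (MCD against control, TMM scale) of genes that each factor is known to bind, 1 point per tested gene, with the number tested in brackets, the list's median as a black bar and the median of all tested genes as a dotted line. The HNF4A list has 12 of 18 genes called lower, and the acute phase list 7 of 12 called higher, up to 3.82 for Lcn2.

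Transcripts of other cell types moved with the diet beside these values, and the counts of markers are to be read against 19.2% of all tested genes higher and 19.1% lower. Cholangiocyte markers were higher for 9 of 10 genes and summed to 51.1 to 173 CPM in control and 508 to 998 CPM in MCD. Myeloid markers were higher for 10 of 10 (117 to 330 CPM against 1020 to 2450 CPM), mesenchymal markers for 8 of 10 with 1 lower (236 to 648 CPM against 878 to 1490 CPM), lymphocyte markers for 5 of 8 (9.96 to 24.9 CPM against 34.1 to 52.9 CPM), and proliferation genes for 7 of 8 (32.1 to 65.1 CPM against 73.4 to 94.9 CPM). No listed marker was at 0 in every library. Onecut1 is also known in bile duct cells, Cebpb and the acute phase genes Lcn2 and Saa3 in myeloid cells, and Prox1 in lymphatic endothelium, whose markers were higher for 2 and lower for 1 of 5 and summed to 81.1 to 183 CPM in control and 83.6 to 113 CPM in MCD. Much of that sum was Reln, which is also in the mesenchymal list, and Flt4 (means of 67.4 and 45.1 CPM in control, 51.2 and 25.2 CPM in MCD). Flt4 was the gene called lower (-0.84), while Pdpn (3.44) and Thy1 (1.87) were called higher. Hepatocyte markers were lower for 6 of 12 and higher for 0, with a median log2 fold change of -0.56, beside the -0.57 of the 9 factors. With total counts alone 1 hepatocyte marker was lower and 1 higher, beside 6.01% and 32.2% of all tested genes. The part of these marker lists in the fold changes of the factors was not tested.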

How the data were processed

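Poly(A) RNA libraries of whole mouse liver (12 control diet, 12 MCD diet) were analysed. The authors deposited raw counts per Ensembl gene, with no normalization. Per the labels, the processing notes name bcl2fastq, STAR 2.7.3a and the mm10 build; the study's supplement describes a stranded TruSeq kit, the exon quantification pipeline and PISCES for reads aligned to an Ensembl human reference. Whether these also hold for the mouse libraries, and the counting program, annotation release and strand setting of the mouse counts, are not given in the sources used here. Groups came from the sample titles and all 24 columns matched, with 0 columns unused.

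The 9 members and all gene lists were chosen with earlier results of these data known. Symbols, lengths and coordinates came from GENCODE M21 (GRCm38), the build that mm10 names, by Ensembl identifier. That release named 51745 of 56205 rows, and rows without a symbol held 0.0808% of counts. Promoters came from RefSeq (GRCm38.p6).

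Genes were kept with filterByExpr by diet (14109 of 56205) and tested over all 24 libraries with the edgeR 4.0.16 quasi-likelihood test (R 4.3.3, TMM factors, no covariate). Calls needed an FDR up to 0.01 with a log2 fold change past 0.5 in either direction. Standard errors were derived from each fitted change and its F statistic. A prior count of 2 entered log2 CPM, and all CPM rest on TMM-scaled sizes. Ratios used counts plus 1. Permutation tests were two-sided with 100000 resamples, and sign-flip tests were exact (scipy 1.17.1, numpy 2.4.6). DESeq2 1.42.0 and limma-voom (limma 3.58.1) were alternatives. Named genes were the 9 members, up to 3 risers and 3 fallers per list among called genes (mean 1 CPM or more), and the genes most like each member (mean 5 CPM or more). The fit and the permutation test were tested on simulated data. The values of 1 gene that the rule names are not reported here. No 2 libraries were identical, and p-values measure the spread between livers.

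Alternatives were other scalings (relative log expression, upper-quartile, total counts alone), a floor of 10 counts in every library, omission of the low-count filter, the other tools, a replicate block, the sex-linked score as covariate, other call limits, omission of each library, and for ratios no added count. Added after the data were seen were the omission of control replicates 10 and 12 together, the score with its product with diet, exon-union length, and scaling to hepatocyte markers, all or those in no bound list.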

Additional observations from a re-analysis of the deposited data

How the results depend on the processing

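Counts of called factors moved with the limits and the scaling. The count called lower was 4, and became 7 with an FDR limit of 0.05 alone, 0 with a log2 limit of 1 (the shares of all tested genes being 37.0% and 4.86%), and 0 on total counts alone, where the median of all genes moved by construction; it was 3 with upper-quartile factors, with at least 10 counts in every library, and without control replicates 10 and 12 together (12.1%, 16.1% and 17.1% of all tested genes), and omitting single libraries gave 3 to 5. The count called higher was 0 and became 1, Cebpb in each case, under 8 settings, given here with the share of all tested genes higher. These were an FDR of 0.05 (26.5%), upper-quartile factors (23.1%), total counts alone (32.2%) and at least 10 counts in every library (15.4%). The others were DESeq2 (20.9%), limma-voom (20.3%), the replicate block (19.7%), and omission of control replicates 10 and 12 together (21.6%). Omitting single libraries gave 0 to 1. Over those omissions 15.8% to 19.8% of all tested genes were lower and 19.0% to 21.5% higher.

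Genes bound by the factors were called lower in 20 cases and higher in 9, but lower in 5 with a log2 limit of 1, beside 4.86% of all tested genes. On total counts alone 7 were lower and 14 higher, where 6.01% of all tested genes were lower and 32.2% higher. Other liver-enriched factors called lower were 9, but 2 with a log2 limit of 1, 5 with upper-quartile factors and 3 on total counts alone, beside 4.86%, 12.1% and 6.01% of all tested genes. Foxa2 turned positive on total counts alone (0.00741) and against the hepatocyte markers (0.15, or 0.14 with those in no bound list). The correlation of Cebpa with Cebpb in control livers turned to -0.125 on total counts, that of Foxa2 with Onecut1 in control to -0.417 without the 2 libraries farthest from the median, and in MCD to 0.595 there. The cause of these changes was not tested.

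Replicate numbers were not treated as pairs, because that required every same-numbered pair to correlate above 0.1 in its deviations, and 8 of 12 did (-0.28 to 0.349, median 0.233, against -0.0592 for other pairs). With the number as a replicate block, 4 factors were called lower and 1 higher (Cebpb, 0.59), beside 17.2% and 19.7% of all tested genes, and 13 of 36 ratios passed. Over all settings the ratio count ran from 13 to 23. Ratios of Foxa1 to Cebpa, Foxa2 to Foxa3 and Foxa3 to Onecut1 passed at 0.0432 and were lost under 16, 15 and 14 of 24 single-library omissions.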
